A study of Homo sapiens with 6 samples.

Results

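The mRNAs of 10 enzymes of lower glycolysis were followed in PC9 cells that overexpressed the G or the A allele of FOXM1 rs3742076 under gefitinib. They are ALDOA, ALDOC, TPI1, GAPDH, PGK1, PGAM1, ENO1, ENO2, PKM and LDHA. They were taken by symbol from a table of 58825 genes, and all 10 were among the 12787 genes tested. PC9 is a human lung adenocarcinoma line with an activating EGFR mutation, and gefitinib is an inhibitor of that receptor. The G allele was overexpressed in 3 libraries and the A allele in 3 libraries, and the cells behind every library received 100 nM gefitinib for 24 h. FOXM1 is a transcription factor of the cell cycle, and the series asks whether its variant alters gefitinib resistance through Wnt/β-catenin signalling. Cells without gefitinib or without FOXM1 overexpression were not analysed here, and the labels name neither the vector nor whether the cells were a clone or a pool.

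Lower glycolysis is the part of the pathway that yields energy. Aldolase splits the hexose bisphosphate, triosephosphate isomerase interconverts the products, and GAPDH oxidises glyceraldehyde 3-phosphate. Phosphoglycerate kinase and pyruvate kinase then make ATP, phosphoglycerate mutase and enolase act between them, and lactate dehydrogenase A turns pyruvate into lactate while restoring NAD+. Many of these genes are known targets of hypoxia-inducible factors and of MYC, and most tumour cells express them strongly.

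Library facts that bear on these values come first. FOXM1 mRNA, which should mark the overexpression in both groups, was 14.6, 14.3 and 13.96 FPKM in G libraries and 25.5, 10.5 and 10.1 FPKM in A libraries. Its groups overlapped, and A replicate 1 stood apart from the other A libraries. Levels are in FPKM, a count of sequenced fragments corrected for gene length and for library size. The mitochondrial genome took 17.7% to 19.7% of the summed FPKM in G libraries and 22.1% to 22.2% in A libraries. Its part in the differences below was not tested, and other scalings of the libraries are given where they turn a direction. All 6 epithelial markers reached 1 FPKM in at least 3 libraries, the filter for testing. Their sum was 2613 to 2865 FPKM in G libraries and 2789 to 3341 FPKM in A libraries. In 3 of the 6, KRT7, KRT8 and KRT18, every G library was below every A library, beside 9.57% of all genes. No epithelial marker was called by limma at an adjusted p under 0.05. None of 5 lung adenocarcinoma lineage markers, NKX2-1, NAPSA and the surfactant genes SFTPB, SFTPA1 and SFTPC, passed that filter, and their sum was at most 0.91 FPKM in any library. No leukocyte, endothelial or erythroid marker passed it, and of 5 fibroblast markers only COL1A1 did. In bulk RNA, fewer cells expressing a gene and less of its RNA per cell cannot be told apart.

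The enzymes were expressed in both groups, most of them at high levels, and none of the 10 passed the test for a difference. GAPDH alone held 61.9% to 67.6% of their summed FPKM in G libraries and 66.3% to 68.0% in A libraries. The sum made up 2.31%, 2.70% and 2.65% of all FPKM in G libraries, against 2.34%, 2.46% and 2.35% in A libraries, so the groups overlapped. In mean level per length over the libraries GAPDH ranked 6 among all genes. ALDOA ranked 42, LDHA 54, ENO1 81, TPI1 101, PGAM1 136, PGK1 153 and PKM 234, while ENO2 stood at 873 and ALDOC at 1825. ALDOA and LDHA overlapped in level across the libraries, as did PGAM1 and PGK1, and every other pair of neighbours in that order was separated in every library. These ranks rest on the gene lengths the authors divided by: the transcripts with the PKM2 exon alone summed to 341, 444 and 332 FPKM in G libraries and 334, 223 and 463 FPKM in A libraries, above the gene's own value in each library.

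Limma on log2(FPKM + 1) called 0 of the 10 enzymes at an adjusted p under 0.05, where it called 0.109% of all genes tested in either direction and 0.0313% with G higher. It called none without A replicate 1 either. At an unadjusted p under 0.05, TPI1 and ENO2 were higher in G, 2 of 10 beside 10.5% of all genes. Their libraries were also the only ones among the 10 that did not overlap between groups, beside 15.4% of all genes with G higher throughout. With 10 genes these counts are near the background. The authors' deposited table marked none of the 10 as significant, none had a deposited p under 0.05, as 5.08% of tested genes did, and none a q-value under 0.05, as 0.266% did. The log2 change was above 0 for 7 of the 10, as it was for 55.1% of all genes, with a median of 0.05 among the enzymes and 0.02 over all genes. On equal summed FPKM, where all genes shift upwards, it was above 0 for all 10 and for 73.9% of all genes, with medians of 0.16 among the enzymes and 0.11 over all genes. In the main fit the lowest limit of a 95% interval was 0.800-fold, for LDHA, and the highest was 1.43-fold, for ENO2. These intervals are for single genes, are not adjusted for the number of genes, and reflect the spread among these libraries alone.

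**Figure D1:**
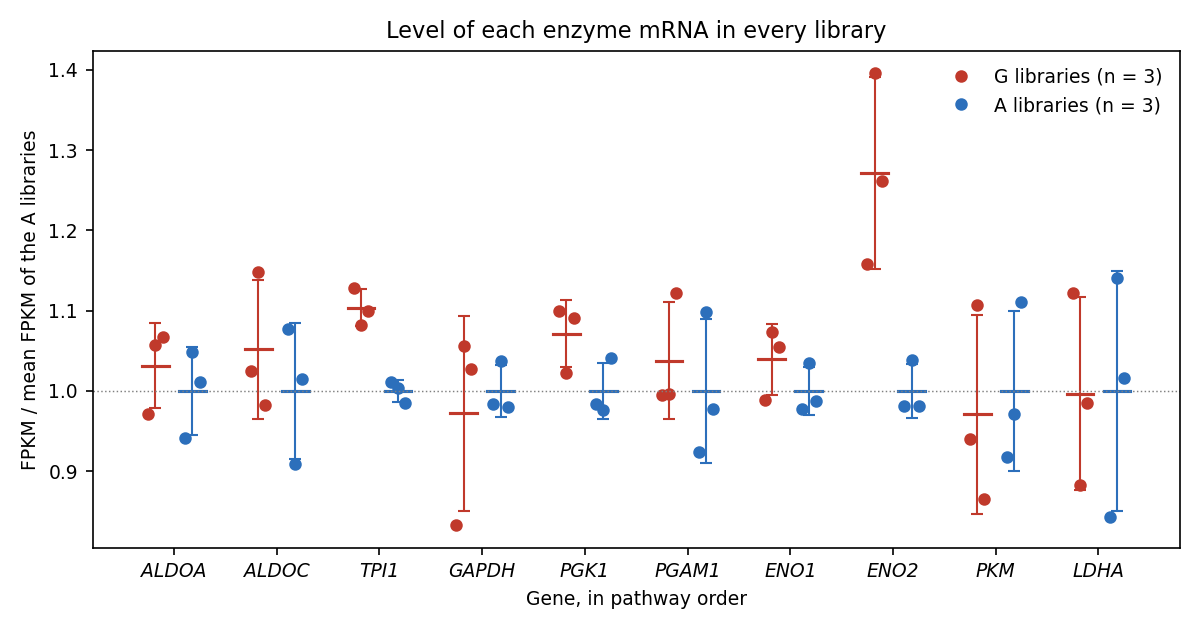
Level of each enzyme mRNA in every library, as FPKM divided by the mean of the A libraries, in pathway order. Red points are G libraries and blue points A libraries, and the horizontal and vertical bars give the mean and SD of each group (n = 3). TPI1 and ENO2 are the genes whose red and blue points do not mix.

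Aldolase opens this stretch, and neither of its expressed forms separated the groups. ALDOA (ENSG00000149925, chromosome 16, 30064164 to 30070457 on GRCh38), the muscle-type and most abundant aldolase, had 533, 580 and 586 FPKM in G libraries and 517, 576 and 555 FPKM in A libraries. The log2 change was 0.04 (95% interval -0.10 to 0.19, limma adjusted p = 0.725). Its exons are shared with a readthrough gene, ENSG00000285043, that held 90.0, 85.6 and 105.9 FPKM in G libraries and 89.5, 84.4 and 73.9 FPKM in A libraries, and StringTie divides reads between the pair. With the pair summed, an alternative chosen after seeing the data, the change was 0.06. ALDOC (ENSG00000109107, chromosome 17, 28573115 to 28576948), the aldolase known from brain, was the lowest of the 10, at 21.4, 24.0 and 20.5 FPKM in G libraries and 22.5, 19.0 and 21.2 FPKM in A libraries. Its level was 3.88% ± 0.34 of that of ALDOA in G libraries and 3.82% ± 0.53 in A libraries (SD, n = 3).

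TPI1 (ENSG00000111669, chromosome 12, 6867119 to 6870948), triosephosphate isomerase, was 275, 263 and 268 FPKM in G libraries, against 246, 244 and 240 FPKM in A libraries. Every G library was above every A library, and the spread within each group was small, with means of 269 ± 5.67 and 243 ± 3.26 FPKM (SD, n = 3) in G and A libraries. The log2 change was 0.14 ± 0.039 (SE), or 1.10-fold with a 95% interval of 1.03 to 1.18. It did not pass the test over all genes (limma adjusted p = 0.197, range over the alternatives 0.0798 to 0.414). The processed pseudogene TPI1P1, whose reads can be mistaken for those of TPI1, had 27.9, 26.9 and 25.4 FPKM in G libraries and 22.2, 22.5 and 23.7 FPKM in A libraries. Its libraries did not overlap either, and its log2 change was 0.22 (limma adjusted p = 0.187).

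The transcripts assigned to TPI1 moved far more than the gene. The form with the most upstream start, ENST00000229270, had 158, 369 and 124 FPKM in G libraries and 349, 340 and 352 FPKM in A libraries. Another full-length form with a downstream start, ENST00000396705, had 232 and 185 FPKM in G replicates 1 and 3 and was listed at 0.0001 FPKM, the authors' value for no estimate, in G replicate 2 and every A library. ENST00000613953 followed the same libraries, with 79.3 FPKM in G replicate 1 and 158.9 FPKM in G replicate 3. The upstream form thus held 33.7% and 26.5% of the 3 forms in G replicates 1 and 3, and nearly all of them in the remaining libraries. In the authors' deposited transcript table both downstream forms had a q-value under 0.05 (5.49e-05 and 1.66e-04), the only such transcripts among 141 of the 10 genes. Both had an estimate of at least 1 FPKM in only 2 libraries, so they were not tested here, and G replicate 2 looked like the A libraries.

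**Figure D2:**
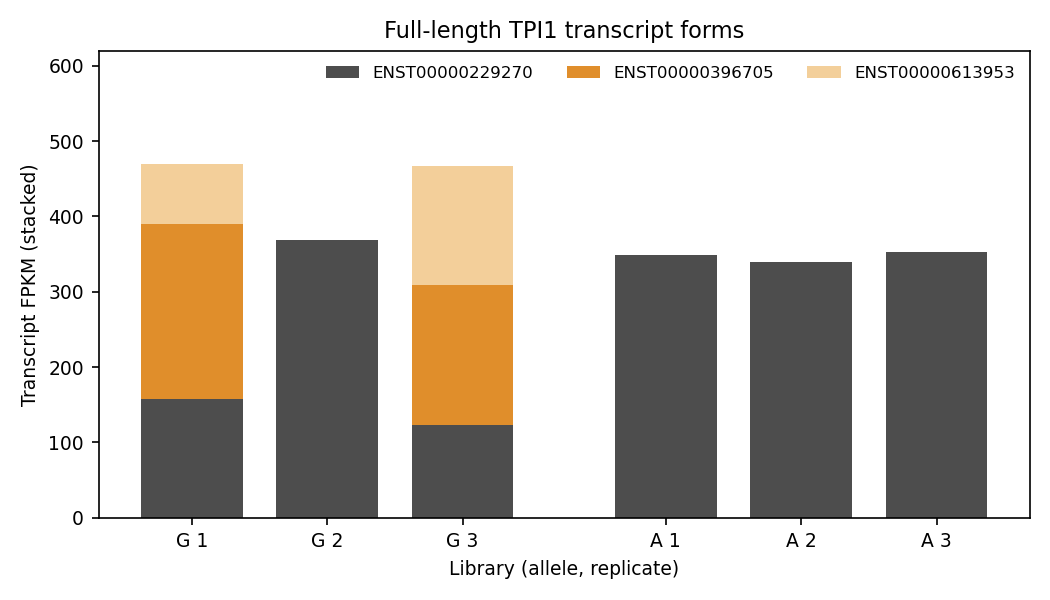
FPKM of the full-length TPI1 transcript forms in each library, stacked, with G libraries on the left and A libraries on the right. The downstream forms (orange shades) appear in G replicates 1 and 3 and nowhere else, while G replicate 2 holds 369 FPKM of the upstream form (grey) and the A libraries 340 to 352 FPKM.

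GAPDH (ENSG00000111640, chromosome 12, 6534512 to 6538374), which couples oxidation to phosphate uptake, was 3651, 4632 and 4505 FPKM in G libraries and 4311, 4547 and 4297 FPKM in A libraries. G replicate 1 was the lowest of all and the other G libraries lay within or just above the A range. The log2 change was -0.05 (95% interval -0.28 to 0.18, or 0.826-fold to 1.13-fold, limma adjusted p = 0.816), and its sign turned to 0.06 without G replicate 1 or on equal summed FPKM and to 0.23 after quantile normalization. GAPDH is a common loading control, and its level in these libraries varied more among G than among A libraries, with an SD of 534 FPKM in G libraries and 141 FPKM in A libraries. The pseudogene GAPDHP1 had 32.1, 32.0 and 29.9 FPKM in G libraries and 28.9, 27.2 and 26.9 FPKM in A libraries, which did not overlap, at a log2 change of 0.17 (limma adjusted p = 0.214). Its level did not follow that of GAPDH across the G libraries.

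PGK1 (ENSG00000102144, chromosome X, 77910739 to 78129295), the first ATP-forming kinase of the pathway, was 201, 187 and 199 FPKM in G libraries and 179, 178 and 190 FPKM in A libraries. G replicate 2 fell among the A libraries, and the log2 change of 0.10 (95% interval -0.02 to 0.22) had a limma adjusted p of 0.368. PGAM1 (ENSG00000171314, chromosome 10, 97426191 to 97433444), the mutase that moves the phosphate group, was 206, 207 and 233 FPKM in G libraries and 192, 228 and 203 FPKM in A libraries. The groups overlapped, and the log2 change of 0.05 (limma adjusted p = 0.753) was -0.00 without G replicate 3. The related mutase BPGM, which makes 2,3-bisphosphoglycerate from the product of GAPDH, had 12.4 ± 0.23 FPKM in G libraries and 15.3 ± 0.71 FPKM in A libraries (SD, n = 3). Its libraries did not overlap, and its log2 change was -0.27 (limma adjusted p = 0.162).

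ENO2 showed the largest log2 change of the 10 genes. ENO2 (ENSG00000111674, chromosome 12, 6913745 to 6923698), the enolase known from neurons, was 41.8, 50.3 and 45.5 FPKM in G libraries, against 35.4, 37.5 and 35.4 FPKM in A libraries. All G libraries were above all A libraries. The log2 change was 0.33 ± 0.076 (SE), or 1.26-fold with a 95% interval of 1.11 to 1.43. It was not called (limma adjusted p = 0.179, range over the alternatives 0.0858 to 0.387), and the authors' deposited table gave it a p of 0.0509 and a q of 0.926. Of its 9 tested transcripts 4 did not overlap, all with G higher, and 2 of the 4 were annotated as intron-retaining. The coding form ENST00000535366 averaged 36.9 FPKM in G libraries and 28.0 FPKM in A libraries. Another coding form, ENST00000229277, averaged 11.7 FPKM in G libraries and 11.6 FPKM in A libraries. ENO1 (ENSG00000074800, chromosome 1, 8861000 to 8879250), the ubiquitous enolase, was 319, 346 and 340 FPKM in G libraries and 315, 333 and 318 FPKM in A libraries, with a log2 change of 0.05 (95% interval -0.06 to 0.17, limma adjusted p = 0.594).

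The balance of the enolases therefore differed between the groups in every library. ENO2 was 13.1%, 14.6% and 13.4% of ENO1 in G libraries and 11.2%, 11.2% and 11.1% in A libraries. That is 13.7% ± 0.77 in G libraries and 11.2% ± 0.072 in A libraries (SD, n = 3), a description of a ratio that was not tested. ENO2 is also used as a neuroendocrine marker. Of 7 neuronal and endocrine markers only TUBB3, a tubulin, passed the filter, and the neuroendocrine factor INSM1 averaged under 0.001 FPKM in both groups. Their sum was 6.51 to 6.77 FPKM in G libraries and 3.83 to 8.06 FPKM in A libraries. The gene LRRC23 overlaps the 5′ end of the ENO2 locus on the same strand and had 6.50, 6.88 and 8.33 FPKM in G libraries and 6.34, 5.58 and 5.42 FPKM in A libraries, which did not overlap. Its part in the ENO2 value was not tested.

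Pyruvate kinase M ends glycolysis and exists in a pair of splice forms that use mutually exclusive exons of equal length. PKM2, the form typical of dividing and tumour cells, can be switched off and on by metabolites, whereas PKM1, typical of muscle and brain, is constantly active. The exons are shown because reads within them can tell the forms apart only where their letters differ. Each is the ninth exon (exon 9) of its transcript, 167 bases long, on the minus strand of chromosome 15 in GRCh38, and capitals mark the 62 positions at which they differ, leaving 62.9% of bases the same. The PKM1 exon lies at chr15:72203022-72203188 and the PKM2 exon at chr15:72202454-72202620, both read 5′ to 3′ from the GENCODE release 29 transcripts ENST00000319622 and ENST00000335181.
PKM1 exon: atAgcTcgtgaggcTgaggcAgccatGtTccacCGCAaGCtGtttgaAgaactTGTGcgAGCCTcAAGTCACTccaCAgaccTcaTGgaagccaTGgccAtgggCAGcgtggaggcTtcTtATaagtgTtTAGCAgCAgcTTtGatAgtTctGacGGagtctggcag
PKM2 exon: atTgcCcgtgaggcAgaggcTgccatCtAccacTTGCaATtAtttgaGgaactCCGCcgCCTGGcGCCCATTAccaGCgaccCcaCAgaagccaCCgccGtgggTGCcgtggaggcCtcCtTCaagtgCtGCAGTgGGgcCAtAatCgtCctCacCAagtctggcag

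PKM as a gene (ENSG00000067225, chromosome 15, 72199029 to 72231822) was 128, 151 and 118 FPKM in G libraries and 125, 133 and 152 FPKM in A libraries. The groups overlapped fully. The log2 change was -0.05 (95% interval -0.31 to 0.22, limma adjusted p = 0.856), and its sign turned to 0.03 without G replicate 3 or A replicate 3 and to 0.06 on equal summed FPKM.

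The PKM2 exon held the larger share among PKM transcripts that carry either exon, in every library. Of the FPKM of the 4 transcripts with the PKM2 exon and the 6 with the PKM1 exon, PKM2 held 88.4%, 88.5% and 96.1% in G libraries and 86.0%, 58.0% and 89.5% in A libraries. The difference of 13.1 percentage points was not separated from the spread (exact two-sided permutation p = 0.3, smallest possible 0.1), and without A replicate 2 it was 3.24 points. In that library a single PKM1-exon transcript, ENST00000561609, was given 150 FPKM and was at 0.0046 FPKM or less elsewhere. On the main transcript of each form alone, PKM2 held 98.7% ± 0.76 in G libraries and 96.9% ± 3.83 in A libraries (SD, n = 3; exact two-sided permutation p = 0.7). The split is therefore known only as far as the estimated transcript values allow: a PKM2-exon transcript annotated for nonsense-mediated decay, ENST00000567118, received 270 FPKM in G replicate 2 and 371 FPKM in A replicate 3 and no estimate in the other libraries.

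**Figure D3:**
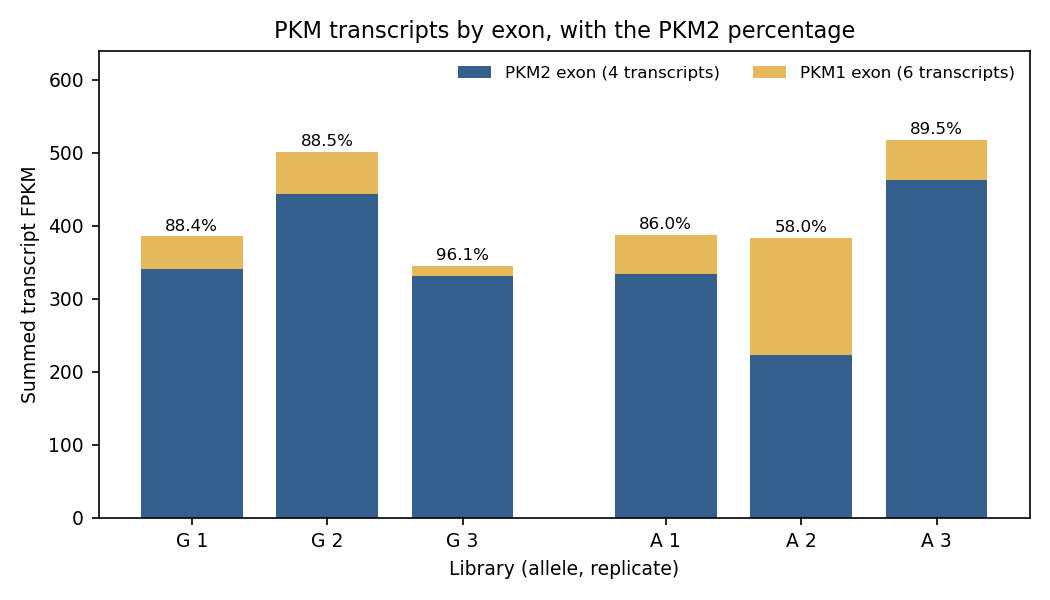
Summed FPKM of PKM transcripts with the PKM2 exon (blue) and with the PKM1 exon (yellow) in each library, G libraries left and A libraries right, with the PKM2 percentage above each bar. A replicate 2, at 58.0%, stands apart, and the other libraries lie between 86.0% and 96.1%.

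Of 5 genes that act on this exon choice or are reported to, none was called by limma. An unadjusted p under 0.05 was found for 1, beside 17.3% of all genes in either direction and 10.5% with G higher. With 5 genes this count is near the background. The gene was NEK2, a mitotic kinase and a known FOXM1 target, at 21.95 ± 0.57 FPKM in G libraries and 18.6 ± 0.72 FPKM in A libraries (SD, n = 3). Its log2 change was 0.23 (limma adjusted p = 0.182), without overlap, as for 15.4% of all genes with G higher. PTBP1, which represses the PKM1 exon, was 23.9 ± 1.58 FPKM in G libraries and 25.7 ± 2.01 FPKM in A libraries. HNRNPA2B1 was 66.2 ± 3.00 FPKM in G libraries and 64.2 ± 0.45 FPKM in A libraries, and SRSF3 was 11.4 ± 0.18 FPKM in G libraries and 11.8 ± 1.11 FPKM in A libraries.

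LDHA (ENSG00000134333, chromosome 11, 18394560 to 18408425), which makes lactate, was 524, 412 and 459 FPKM in G libraries and 393, 532 and 474 FPKM in A libraries. High and low libraries occurred in both groups, and the log2 change was -0.00 with the widest interval of the 10 genes, -0.32 to 0.32, or 0.800-fold to 1.25-fold (limma adjusted p = 0.998). Its sign carried no information, since it turned in 7 of 17 alternatives. LDHB, the isozyme that favours pyruvate, was 109 ± 6.29 FPKM in G libraries and 102 ± 8.17 FPKM in A libraries (SD, n = 3; limma adjusted p = 0.531). It stood at 22.0%, 24.9% and 23.7% of LDHA in G libraries and at 23.4%, 20.1% and 22.3% in A libraries, which overlapped. The pseudogene LDHAP4 jumped between libraries of the same group, with 0.67, 19.5 and 22.3 FPKM in G libraries and 26.7, 0.50 and 0.69 FPKM in A libraries. LDHAP4 was low in G replicate 1 and in A replicates 2 and 3, and these were the libraries with the highest LDHA of their groups. Reads of such near-identical copies can be assigned to either, so LDHA and LDHAP4 are uncertain to that extent.

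The members' transcripts gave no call either. Of 141 listed transcripts of the 10 genes 80 were tested, and limma called 0, where it called 0.147% of all 29990 transcripts. At an unadjusted p under 0.05 there were 10 of 80, beside 7.81% of all transcripts. The libraries did not overlap for 14 of the 80, 13 of them with G higher, beside 16% of all transcripts in either direction and 9.59% with G higher. The exception was the GAPDH transcript ENST00000396861, at 101.5, 133.7 and 129.5 FPKM in G libraries and 173.9, 154.4 and 171 FPKM in A libraries. Transcript values were unsteady: 12 of the 80 varied at least 10-fold between libraries, which no gene value of the 10 did.

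Transcripts annotated as intron-retaining made up 7 of the 14 without overlap. Of 29 such transcripts tested, 19 had a log2 change above 0, with a median of 0.24, where 60.4% of all tested intron-retaining transcripts lay above 0, with a median of 0.10. In 7 of the 29 the G libraries were all higher and in 0 all lower, beside 10.4% and 4.19% of the 5395 intron-retaining transcripts tested. Limma called none, and 5 had an unadjusted p under 0.05 with G higher, beside 6.25% of that class. On equal summed FPKM 21 of the 29 lay above 0, beside 67.0% of the class, and without A replicate 1 the G libraries were all higher for 9, beside 18.1%. The 7 seen with all libraries belonged to PKM (3 of 7), ENO1 (2 of 4) and ENO2 (2 of 3). Transcripts of the same gene share reads, so the 7 are not independent of each other. In each gene with such forms the most abundant one overlapped between groups, except in ENO2. Those of GAPDH, ENO1 and LDHA averaged 3780, 507 and 365 FPKM in G libraries and 3865, 487 and 458 FPKM in A libraries. The ENO2 form ENST00000542509 had 27.1, 29.6 and 24.3 FPKM in G libraries and 16.4, 14.4 and 16.6 FPKM in A libraries, a log2 change of 0.74 (limma adjusted p = 0.192). PKM form ENST00000563986 had 13.7, 18.1 and 17.0 FPKM in G libraries and 11.7, 10.9 and 8.49 FPKM in A libraries, a log2 change of 0.61 (limma adjusted p = 0.533). The ENO1 form ENST00000492343 had 44.7, 16.2 and 12.6 FPKM in G libraries and 11.3, 5.95 and 6.51 FPKM in A libraries, a log2 change of 1.35 (limma adjusted p = 0.628). StringTie divides the reads of exons that such forms share with the coding mRNA, so these values are estimates.

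**Figure D4:**
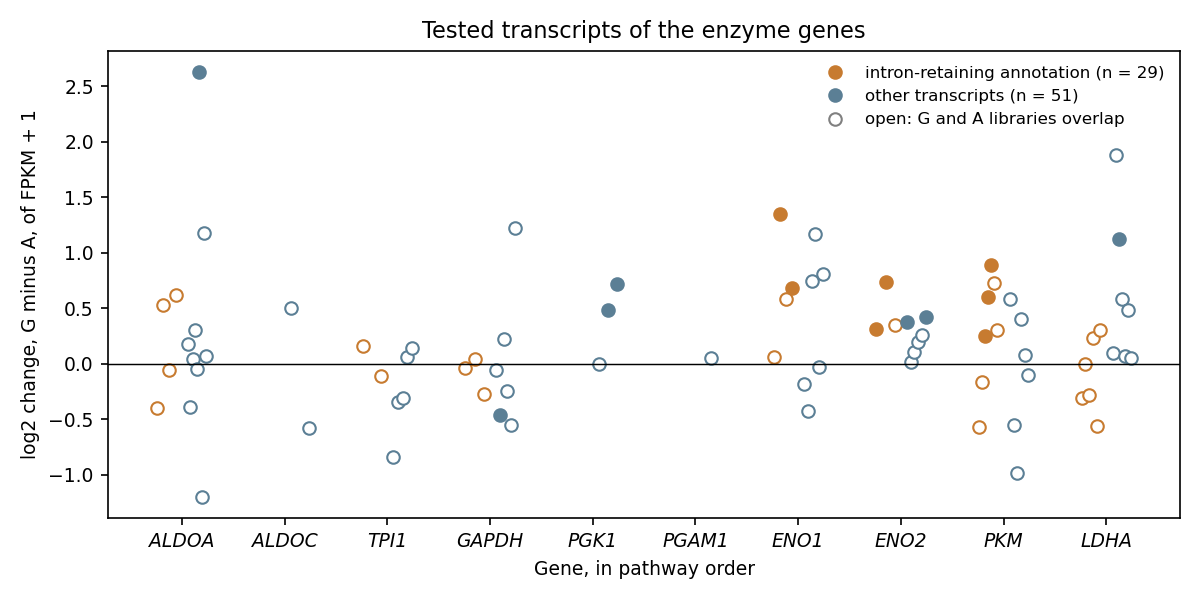
Log2 change, G minus A, of the 80 tested transcripts of the enzyme genes, by gene in pathway order. Orange points are annotated as intron-retaining (n = 29) and blue points are the others (n = 51), and filled points mark transcripts whose G and A libraries do not overlap. Filled orange points lie above 0 and belong to ENO1, ENO2 and PKM.

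The genes around these enzymes were followed as lists by role. Upstream of aldolase, all 12 of the 15 listed glucose transport and upper glycolysis genes that were tested had a log2 change above 0, with a median of 0.15, and in 10 of them every G library was above every A library, beside 55.1% and 15.4% of all genes. Without A replicate 1 the count was also 10, beside 24.8% of all genes. Limma called 1, HK2, the hexokinase of many tumours, at 38.7, 37.5 and 38.7 FPKM in G libraries and 26.6, 25.1 and 25.6 FPKM in A libraries. HK2 rose 1.47-fold in G libraries, a log2 change of 0.55 (limma adjusted p = 0.0257), and it stayed under 0.05 in 9 of 17 alternatives. The glucose transporter SLC2A3 was 52.2 ± 1.71 FPKM in G libraries and 38.7 ± 0.82 FPKM in A libraries (limma adjusted p = 0.0613), and SLC2A1 was 85.4 ± 1.51 FPKM in G libraries and 75.3 ± 2.17 FPKM in A libraries (adjusted p = 0.184). PFKFB4, which makes an activator of phosphofructokinase, was 7.67 ± 0.32 FPKM in G libraries and 5.92 ± 0.15 FPKM in A libraries (limma adjusted p = 0.151). The difference between this list and the 10 lower enzymes was not tested.

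**Figure D5:**
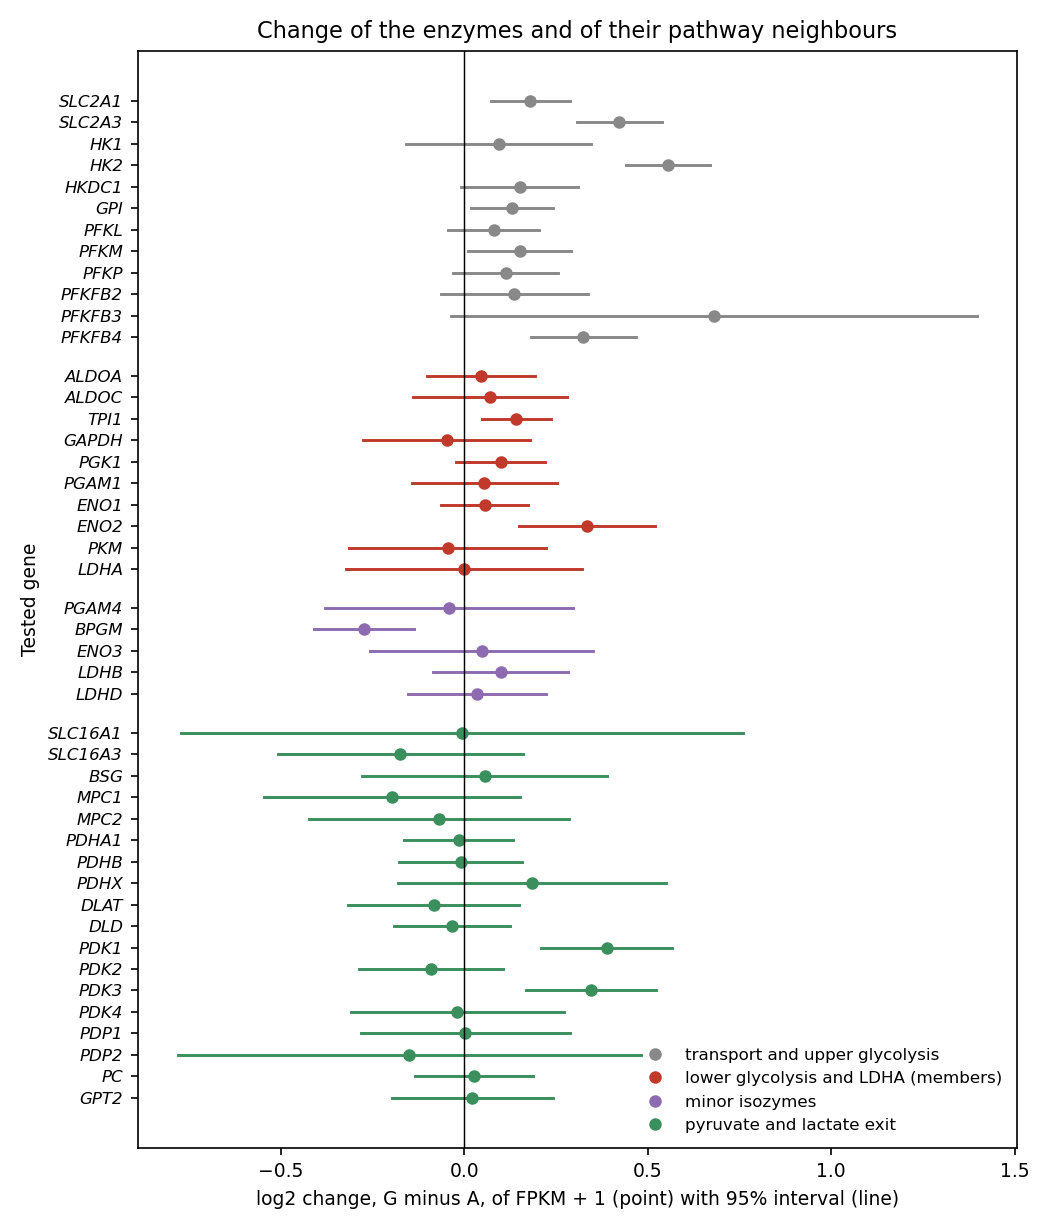
Log2 change, G minus A, of FPKM + 1 for tested genes of upper glycolysis (grey), the 10 enzymes (red), minor isozymes and related genes (purple) and pyruvate and lactate exit (green). Points are estimates and lines 95% intervals from limma. HK2 lies at 0.55 and ENO2 at 0.33, and the intervals of TPI1 and ENO2 are the ones among the red genes that leave out 0.

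Downstream, 7 of 18 tested genes of pyruvate and lactate exit had a log2 change above 0, beside 55.1% of all genes. Their median was -0.01, beside 0.02 over all genes, and none was called by limma. The balance of signs depended on the scale, since 15 of the 18 lay above 0 on equal summed FPKM, beside 73.9% of all genes, and 12 on that of nuclear genes, beside 63.6%. PDK1 and PDK3, kinases that restrain pyruvate dehydrogenase, were the 2 of 18 with an unadjusted p under 0.05, both higher in G. Over all genes 10.5% had such a p with G higher and 17.3% in either direction, so this count is near the background. PDK1 was 4.70 ± 0.145 FPKM in G libraries and 3.36 ± 0.295 FPKM in A libraries (limma adjusted p = 0.159), and PDK3 was 4.69 ± 0.32 FPKM in G libraries and 3.47 ± 0.18 FPKM in A libraries (limma adjusted p = 0.165). The lactate exporter SLC16A3 was 12.2 ± 1.96 FPKM in G libraries and 13.9 ± 1.88 FPKM in A libraries, and the pyruvate carrier subunit MPC1 was 2.62 ± 0.69 FPKM in G libraries and 3.11 ± 0.19 FPKM in A libraries. Of the 14 minor isozymes and related genes 5 were tested and none was called. BPGM was the 1 with an unadjusted p under 0.05, beside 17.3% of all genes in either direction. ENO3 and LDHD were close to the filter or low, at 1.75 ± 0.40 and 5.69 ± 0.53 FPKM in G libraries and 1.64 ± 0.13 and 5.52 ± 0.22 FPKM in A libraries.

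Genes of side branches of glycolysis lay mostly on the other side of 0. Of 13 tested side-branch genes 11 had a log2 change under 0, with a median of -0.14, and in 6 every G library was below every A library, while limma called none and 5 had an unadjusted p under 0.05. Over all genes 44.9% lay under 0, 9.57% had every G library lower and 6.82% had an unadjusted p under 0.05 with G lower. On equal summed FPKM 8 of the 13 lay under 0, beside 26.1% of all genes, and without A replicate 1 the G libraries were all lower in 8, beside 17.2%. TALDO1, transaldolase of the pentose phosphate pathway, was 132.0, 132.3 and 133.0 FPKM in G libraries and 157, 162 and 159 FPKM in A libraries (limma adjusted p = 0.127). The serine hydroxymethyltransferases SHMT1 and SHMT2 were 9.23 ± 0.17 and 29.4 ± 5.09 FPKM in G libraries and 10.8 ± 0.54 and 37.2 ± 2.01 FPKM in A libraries. Of 6 gluconeogenesis genes 3 were tested and none was called or had an unadjusted p under 0.05. FBP1 was 39.2 ± 2.16 FPKM in G libraries and 43.7 ± 6.43 FPKM in A libraries, PCK2 was 12.0 ± 2.16 FPKM in G libraries and 11.4 ± 1.83 FPKM in A libraries, and G6PC3 was 4.17 ± 1.46 FPKM in G libraries and 3.49 ± 0.35 FPKM in A libraries.

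Of 10 regulators of glycolytic genes 9 were tested, and all 9 had a log2 change above 0, beside 55.1% of all genes. Their median was 0.13, beside 0.02 over all genes, but limma called none and none had an unadjusted p under 0.05. With median-ratio factors 8 of the 9 lay above 0, beside 50.8% of all genes, and 7 did without G replicate 1, beside 55.3%. EGLN1, the oxygen-sensing prolyl hydroxylase, was 15.1 ± 0.57 FPKM in G libraries and 13.8 ± 0.50 FPKM in A libraries (limma adjusted p = 0.316). MYC was 4.47 ± 0.43 FPKM in G libraries and 3.51 ± 1.39 FPKM in A libraries, ARNT 8.87 ± 1.15 FPKM in G libraries and 8.01 ± 0.76 FPKM in A libraries, and EPAS1 36.6 ± 0.0745 FPKM in G libraries and 34.9 ± 2.48 FPKM in A libraries.

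Hypoxia-inducible factors are known to bind near several of these genes. Stretches before annotated starts, called promoters here, are therefore shown for the letters of the core site of these factors. The motif searched was ACGTG or GCGTG on either strand, in the 250 bases before 14 RefSeq starts of the 10 genes (GRCh38.p14). The start of the most abundant transcript was not always among them. It occurred in 11 of 14 windows and in 8 of 10 genes, and the windows of PGAM1 and PKM held no match. Of 35116 promoter windows of the same length 43.2% held it. The PGAM1 window precedes a start at 97427818, downstream of the start of its only tested transcript, ENST00000334828, at 97426191. The bases before that upstream start were not searched. The stretches that follow are the parts of the windows outside annotated exons for PGK1 (chrX:78103998-78104173), TPI1 (chr12:6867855-6868099), GAPDH (chr12:6535142-6535263) and LDHA (chr11:18394313-18394387), all on the plus strand. The TPI1 stretch lies downstream of the start of ENST00000229270, at 6867119. The GAPDH stretch lies downstream of the start of the abundant form ENST00000229239, at 6534517, and the bases before that start were not searched. Capitals mark the motif, and overlapping matches on both strands appear as 1 longer run. A match is a description of letters and was not set against binding data.
PGK1 promoter: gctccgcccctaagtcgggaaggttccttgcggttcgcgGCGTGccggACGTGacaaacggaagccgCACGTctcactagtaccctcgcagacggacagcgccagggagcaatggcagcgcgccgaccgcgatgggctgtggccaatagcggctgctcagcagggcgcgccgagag
TPI1 promoter: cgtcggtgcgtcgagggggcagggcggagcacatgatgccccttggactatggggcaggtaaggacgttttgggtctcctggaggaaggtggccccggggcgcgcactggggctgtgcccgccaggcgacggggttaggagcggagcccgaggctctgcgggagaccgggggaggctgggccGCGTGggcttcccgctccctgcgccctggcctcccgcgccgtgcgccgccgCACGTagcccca
GAPDH promoter: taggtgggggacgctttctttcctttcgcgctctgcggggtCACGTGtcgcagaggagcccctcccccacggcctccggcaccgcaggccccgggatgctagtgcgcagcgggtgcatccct
LDHA promoter: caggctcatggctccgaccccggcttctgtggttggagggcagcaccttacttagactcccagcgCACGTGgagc
Genes with the motif in a searched window were TPI1 and ENO2, whose libraries did not overlap between groups, and ALDOA, ALDOC, GAPDH, PGK1, ENO1 and LDHA, whose libraries did. The libraries of PGAM1 and PKM, whose windows held no match, overlapped as well. The motif was not tested against the changes. For TPI1 the motif lay only in the window before 6868105. The window before 6867531, the start of ENST00000396705, held no match.

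Of 100 pseudogenes of the 10 genes, 57 had no estimate in any library, 10 reached 1 FPKM in at least 1 library and 7 were tested, with none called by limma. LDHAP3 was 1.299 ± 0.12 FPKM in G libraries and 1.83 ± 0.022 FPKM in A libraries, and ENO1P4 was 0.58 ± 0.72 FPKM in G libraries and 1.49 ± 0.13 FPKM in A libraries (SD, n = 3). Both lay near the filter.

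The joint pattern of the enzymes across libraries was shallow. The median of their centred log2 values was -0.01, 0.07 and 0.07 in G libraries and -0.08, 0.00 and -0.01 in A libraries, so A replicate 1 was lowest and G replicate 1 lay among the A libraries. ENO1 and ALDOA followed that median most closely, at root mean square distances of 0.023 and 0.029 on the log2 scale over the 6 libraries, and LDHA least, at 0.164. Among 3855 other genes with a mean of at least 10 FPKM, the nearest to it were UCHL1, AKAP8L, KIF2C, COPS4 and C11orf80, at distances of 0.0188 to 0.0268. UCHL1 had 52.5, 55.3 and 55.1 FPKM in G libraries and 49.8, 51.7 and 53.5 FPKM in A libraries, a log2 change of 0.07 (limma adjusted p = 0.503).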

How the data were processed

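Poly(A) RNA of 6 libraries was measured, 3 with the G and 3 with the A allele. The authors processed the reads with cutadapt 1.9, HISAT2 2.0.4 and StringTie 1.3.4d, per the submitters' processing notes. The notes name a mouse build, but the deposited identifiers are human, and 94.6% of the 206348 transcripts also listed in GENCODE release 29 sit at its GRCh38 positions, so positions are on GRCh38. Whether strand was used, and the authors' test, is not given in the sources used here.

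The deposited gene and transcript tables hold FPKM, and per the file headers also a fold ratio of G over A with its log2, as well as a p-value and q-value for each row. A value of 0.0001 stands for no estimate. The step of 1 read pair in low values gave 19760000 to 23335000 read-pair equivalents per library, sought within a preset window. Only 28.4% to 30.6% of low values were whole multiples within 0.02, so reads could not be recovered whole and count models were left aside. Gene and transcript values carry no counting interval for that reason.

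Values were taken as log2(FPKM + 1), and each change is the G mean minus the A mean, a scale on which changes of low genes look smaller. Genes and transcripts with at least 1 FPKM in at least 3 libraries were tested with limma 3.58.1 with an intensity trend (R 4.3.3), with Benjamini-Hochberg adjustment over all 12787 genes or 29990 transcripts and a threshold of 0.05. The fit was checked on simulated data. The PKM2 share and FOXM1 were tested with exact two-sided permutation tests, which cannot go below p = 0.1 here. For FOXM1 the exact permutation test gave p = 1. Tables were read with Python 3.11.15, pandas 2.3.3 and scipy 1.17.1.

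Genes were named by a rule: all 10 enzymes, up to 4 tested genes of each list with the smallest p, and the 5 other genes nearest to the enzymes' median profile. A side-branch gene that the rule takes is not reported here. LDHAP4, LRRC23, the readthrough gene and single transcripts were named after their values were seen. The enzymes and the lists were chosen with earlier results of these data known. Since G and A libraries share replicate numbers, the deviations of same-numbered libraries were compared. Alternatives changed the pseudocount, filter, scaling, variance model, library weights, block and set of libraries. Separate cultures are not stated for the replicates, so p-values reflect the spread among these libraries alone, which may be technical.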

Additional observations from a re-analysis of the deposited data

How the results depend on the processing

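None of the 10 enzymes was called under the 19 alternatives run on their count, and none of their transcripts under the 12 run on transcripts. The scalings and array weights were not among those 12. The smallest adjusted p among 171 values of the enzymes was 0.0798, for TPI1 on equal summed FPKM. TPI1 and ENO2 kept their direction in all 17 of theirs. The median change of the enzymes was 0.05, was 0.163 on equal summed FPKM and 0.151 after quantile normalization, and ranged from 0.0204 to 0.0851 when 1 library was left out, lowest without A replicate 1. Equal summed FPKM moved the median of all genes from 0.02 to 0.11, so most of its shift of the enzymes is common to all genes. Quantile normalization did not shift all genes in that way, with a median of 0.00083 over all genes. All 10 enzymes lay above 0 there, beside 50.3% of all genes, and the cause was not tested.

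Other signs turned as follows, and the cause was not tested. GAPDH was 0.0596 without G replicate 1 (range with 1 library left out -0.112 to 0.0596), 0.0605 on equal summed FPKM and 0.229 after quantile normalization. PGAM1 was -0.00238 without G replicate 3 (up to 0.124). PKM was 0.0328 without G replicate 3 (down to -0.143 without G replicate 2), 0.0319 without A replicate 3, 0.0624 on equal summed FPKM, 0.000542 on equal summed FPKM of nuclear genes and 0.0376 after quantile normalization. LDHA was -0.118 without A replicate 1, but 0.083 without G replicate 2, 0.00395 without G replicate 3, 0.099 without A replicate 2, 0.0162 without A replicate 3, 0.108 on equal summed FPKM, 0.0453 on that of nuclear genes and 0.0837 after quantile normalization. Without G replicate 2, LDHD was -0.0295 (up to 0.0758), ENO3 -0.0448 (up to 0.168) and G6PC3 -0.0436 (up to 0.349), and ENO3 was -0.011 after quantile normalization and -0.0377 with array weights. PCK2 was -0.0678 without G replicate 3 and -0.0154 without A replicate 2 (up to 0.180). PTBP1 was 0.0096 and SRSF3 0.0543 on equal summed FPKM, and SRSF3 was 0.00749 without A replicate 3 (down to -0.116). FOXM1 ranged from -0.188 without A replicate 3 and -0.161 without A replicate 2 to 0.443 without A replicate 1.

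The PKM2 difference ranged from 3.24 to 18.95 points when 1 library was left out, with exact permutation p between 0.2 and 0.6. HK2 lost its call in 8 alternatives, each library left out except A replicate 1, no filter, no variance trend and the replicate block (adjusted p from 0.0679 to 0.261), while SLC2A3 gained one on equal summed FPKM and with array weights. The deviations of same-numbered libraries correlated at 0.073, 0.015 and 0.040, and those of other pairs at -0.056 to 0.016. G replicate 2 correlated no better with its own number than with A replicate 3. Deviations from means of 3 libraries are bound to balance, so values this small cannot show whether the numbers pair the samples. With the replicate block 0 enzymes and 0 genes in all were called, against 14 genes without it. The numbers of genes called over all alternatives ran from 0 to 21.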
